A study of Rattus norvegicus with 6 samples.

Results

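The urea cycle genes are the liver genes that turn ammonia into urea: the enzymes Cps1, Otc, Ass1, Asl and Arg1, the enzyme Nags that makes the activator of Cps1, and the mitochondrial carriers Slc25a15 and Slc25a13. They were taken as every non-control probe whose RefSeq transcript carried 1 of these 8 symbols. This found 9 probes for 7 of the 8 genes, among 61657 non-control probes and 27642 genes tested. Asl and Slc25a15 had 2 probes each, and no probe was matched to Slc25a13, whose expression was not analysed here. The data were liver RNA from 6 male Sprague-Dawley rats, an outbred stock bought at 5 weeks of age, each measured on 1 Agilent 1-colour array. One group of 3 rats received corn oil, the vehicle, and the other group of 3 received 400 mg per kg per day of TCEP. TCEP, tris(2-chloroethyl) phosphate, is an organophosphate ester with chlorine used to slow burning. The labels give 9 weeks of dosing in the treatment protocol and 28 days in the series' design text, and the age at sampling was not given in the sources used here.

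In the urea cycle, Cps1 joins ammonia and bicarbonate inside the mitochondria and Otc passes the product to ornithine, giving citrulline. Citrulline leaves for the cytosol, where Ass1 adds aspartate, Asl releases fumarate and leaves arginine, and Arg1 splits arginine into urea and ornithine, which Slc25a15 carries back into the mitochondria. The pathway is strongest in hepatocytes around the portal vein, while hepatocytes around the central vein capture the remaining ammonia as glutamine.

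The promoters of Cps1, Otc and Ass1 are shown because Cps1 opens the mitochondrial and Ass1 the cytosolic steps of the pathway and both were lowest in the same liver, while Otc, lowest in another, follows Cps1 in the mitochondria. The windows run from 250 bases before to 50 bases after each RefSeq start in rat build GRCr8, 5′ to 3′ on the gene's strand, and capitals mark a motif match.
Cps1, chr9:76063613-76063912, plus strand: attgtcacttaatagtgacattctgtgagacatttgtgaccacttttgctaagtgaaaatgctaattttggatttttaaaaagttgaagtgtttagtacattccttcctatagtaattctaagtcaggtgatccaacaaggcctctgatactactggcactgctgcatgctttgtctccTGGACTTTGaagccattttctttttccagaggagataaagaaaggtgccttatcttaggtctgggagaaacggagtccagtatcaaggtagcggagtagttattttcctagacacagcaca
Otc, chrX:15202424-15202723, minus strand: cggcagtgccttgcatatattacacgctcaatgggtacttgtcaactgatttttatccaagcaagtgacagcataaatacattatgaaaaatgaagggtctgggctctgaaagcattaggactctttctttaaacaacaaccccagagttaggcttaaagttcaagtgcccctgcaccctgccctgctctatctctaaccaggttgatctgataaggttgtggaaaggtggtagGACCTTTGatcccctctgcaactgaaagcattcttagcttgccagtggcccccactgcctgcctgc
Ass1, chr3:35149480-35149779, plus strand: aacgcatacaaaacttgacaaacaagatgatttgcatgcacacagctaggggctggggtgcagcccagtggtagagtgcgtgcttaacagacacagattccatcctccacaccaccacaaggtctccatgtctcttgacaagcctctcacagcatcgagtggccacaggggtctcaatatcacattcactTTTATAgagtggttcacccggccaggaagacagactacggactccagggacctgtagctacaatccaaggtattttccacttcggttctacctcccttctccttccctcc
In the Cps1 window the capitals are the reverse complement of CAAAGTCCA, letters like those bound by the liver transcription factor HNF4A, beginning 71 bases before the start. In the Otc window they are the reverse complement of CAAAGGTC, beginning 16 bases before the start, and in the Ass1 window the reverse complement of TATAAA, beginning 60 bases before the start. Over both strands of 33469 RefSeq rat promoter windows of this length, CAAAGTCCA was found in 0.391%, CAAAGGTC in 1.106% and TATAAA in 14.2%. Each of these motifs was in only 1 of the 7 urea cycle windows. CCAAT, found in 37.5% of all windows, was in those of Slc25a15 and Slc25a13. The letters TTGCNNAA, with a share of 10.6%, and TGACGTCA, with 1.83%, were in none of the 7 urea cycle windows in the table. The motifs were picked after the sequences were seen, may overlap one another, and describe letters only, since no factor binding was measured.

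No urea cycle gene differed between TCEP and corn oil beyond the spread within the groups. With limma and Benjamini-Hochberg adjustment over all 27642 genes, 0 of 7 passed an adjusted p of 0.05, as did 0% of all genes, none of them reaching below 0.291. The count was also 0 of 7 at an unadjusted p under 0.05, which 9.2% of all genes met, and the TCEP and corn oil values overlapped in all 7, whereas they did not overlap in 17.4% of all genes. The mean was lower with TCEP in 5 of the 7 and higher in 2. The median difference was -0.07 on the log2 scale, against 0.005 over all genes, of which 49.1% had a lower mean. In values of bulk liver, fewer hepatocytes and less RNA per hepatocyte cannot be told apart.

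**Figure D1:**
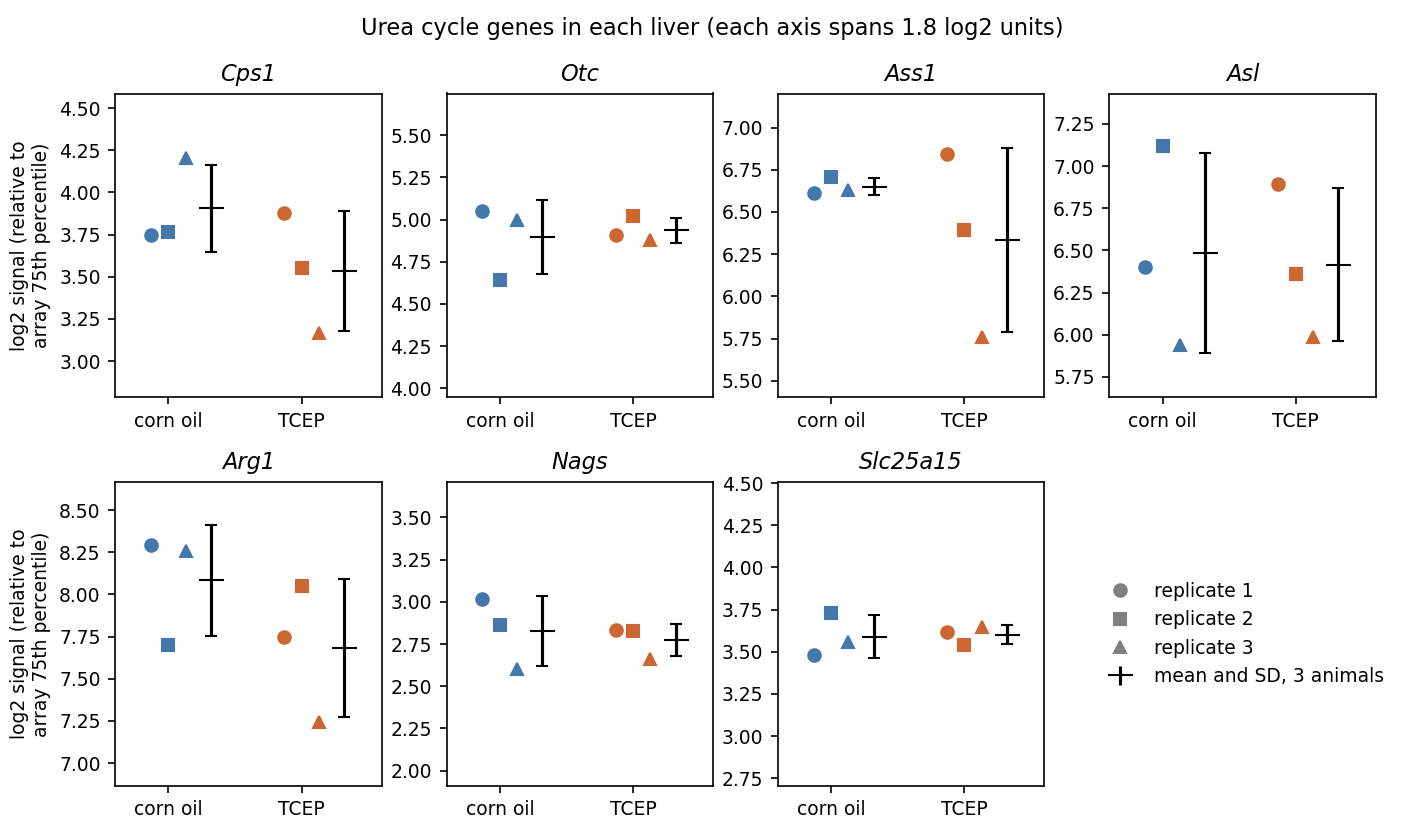
Log2 signal of each urea cycle gene relative to its array's 75th percentile (y axis; every panel spans the same range of log2 units) in 3 corn oil and 3 TCEP livers, with 1 symbol per replicate number and bars for the group mean ± SD. The 2 groups overlap in all 7 panels, and the TCEP replicate 3 triangle is the lowest point for Cps1, Ass1 and Arg1.

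All levels are log2 processed signals relative to the 75th percentile of the non-control probes of the same array, so 0 is that percentile and a level is not compared between genes. The 9 probes were well above background on all 6 arrays, and none was saturated or had an outlier flag. Between 57.2% and 64.4% of all probes were well above background per array. Corn oil replicates 1 and 3 lay on slide 1 and corn oil replicate 2 lay on slide 2, scanned 23 days later. The TCEP arrays lay on slide 3, so slide and treatment cannot be told apart. Over all genes, 2 corn oil arrays correlated at 0.986 to 0.988, 2 TCEP arrays at 0.991 to 0.993, and arrays of different treatment at 0.988 to 0.991.

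Of the mitochondrial enzymes, Cps1, which catalyses the entry step, read 3.75, 3.76 and 4.20 in corn oil replicates 1 to 3 and 3.88, 3.55 and 3.17 in TCEP replicates 1 to 3. The highest liver was corn oil replicate 3 and the lowest TCEP replicate 3, and TCEP replicate 1 lay above 2 of the corn oil livers. The group means were 3.91 ± 0.26 (SD, n = 3) and 3.53 ± 0.35 (SD, n = 3), a log2 difference of -0.37 ± 0.22 (SE; 95% interval -0.90 to 0.16), with a limma adjusted p of 0.634. Otc, which makes citrulline, read 5.05, 4.64 and 5.00 with corn oil and 4.91, 5.02 and 4.88 with TCEP. Corn oil replicate 2 alone was low, and the other 5 livers were within a narrow range. Its difference was 0.04 ± 0.13 (SE; 95% interval -0.29 to 0.36; limma adjusted p 0.947). Nags, whose product N-acetylglutamate switches Cps1 on, read 3.02, 2.86 and 2.60 with corn oil and 2.84, 2.83 and 2.66 with TCEP. Its TCEP values all fell inside the corn oil range, and the difference was -0.05 ± 0.13 (SE; 95% interval -0.38 to 0.27; limma adjusted p 0.924).

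Of the cytosolic enzymes, Ass1, which condenses citrulline with aspartate, read 6.61, 6.71 and 6.63 with corn oil and 6.85, 6.40 and 5.76 with TCEP. The corn oil livers were close together, with an SD of 0.05, while the TCEP livers held both the highest and the lowest value of the 6, with an SD of 0.55. The difference was -0.32 ± 0.27 (SE; 95% interval -0.96 to 0.33; limma adjusted p 0.731), and a difference in spread between the groups was not tested. Arg1, which releases urea, read 8.29, 7.70 and 8.26 with corn oil and 7.75, 8.05 and 7.24 with TCEP. Corn oil replicates 1 and 3 lay above every TCEP liver, and corn oil replicate 2 lay below 2 of them. Its difference was the largest of the 7 at -0.40 ± 0.26 (SE; 95% interval -1.02 to 0.22; limma adjusted p 0.656), a mean 1.32-fold lower.

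Asl, which splits argininosuccinate into arginine and fumarate, read 6.40, 7.12 and 5.94 with corn oil and 6.90, 6.36 and 5.99 with TCEP. Corn oil held both the highest and the lowest liver, and the difference was -0.07 ± 0.36 (SE; 95% interval -0.93 to 0.79; limma adjusted p 0.967). The dimmer Asl probe read 4.08, 4.80 and 3.60 with corn oil and 4.61, 3.94 and 3.77 with TCEP. It placed the livers in nearly the same way, with r = 0.990 over the 6 arrays and no liver more than 0.106 apart between the probes after each was centred on its own mean. The spread of Asl between livers was thus measured by both of its probes.

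Slc25a15, the ornithine and citrulline carrier of the inner mitochondrial membrane, read 3.48, 3.73 and 3.56 with corn oil and 3.62, 3.54 and 3.65 with TCEP by its brighter probe. All TCEP values fell inside the corn oil range, and the difference was 0.01 ± 0.10 (SE; 95% interval -0.24 to 0.26; limma adjusted p 0.983). Its dimmer probe read -3.26, -3.35 and -2.91 with corn oil and -3.01, -3.04 and -4.33 with TCEP. On that probe TCEP replicate 3 alone was low, and its difference in a fit of all 37043 probes was -0.29 ± 0.37 (SE). The 2 probes did not track each other (r = -0.38 over 6 arrays), so the carrier's value rests on which probe is read. The processed signal of the dimmer probe was only 26.0 to 70.8, against 5270 to 6837 for the brighter probe.

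**Figure D2:**
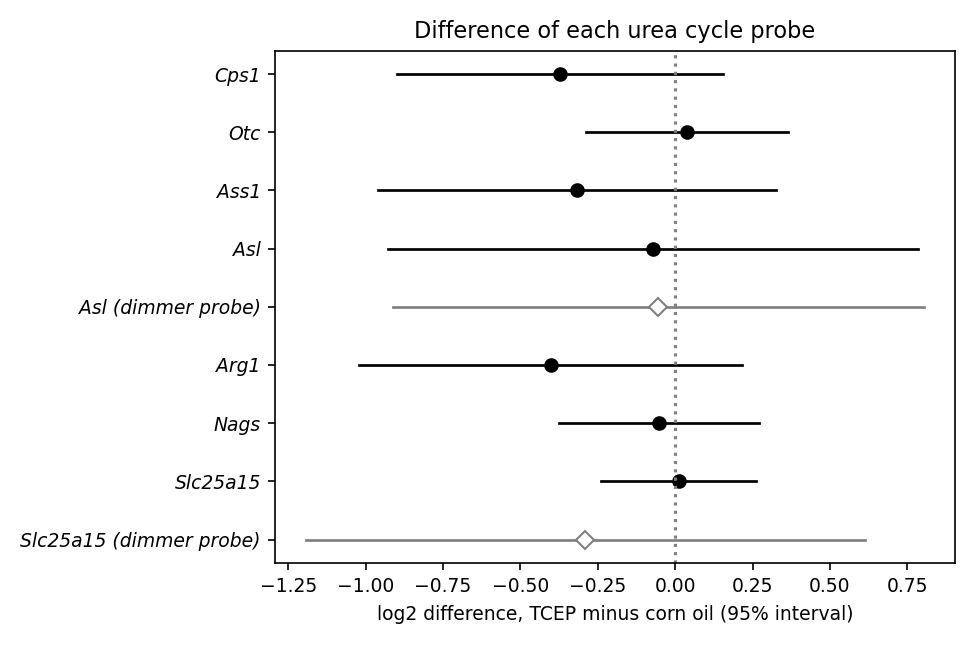
Log2 difference, TCEP minus corn oil, with its 95% interval (x axis) for each of the 9 urea cycle probes, from a limma fit of all probes; filled circles are the brightest probe of a gene and open diamonds the dimmer probes of Asl and Slc25a15. Every interval includes 0, and the narrowest is that of the brighter Slc25a15 probe.

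The members differed in how far they spread between the arrays of rats given the same treatment. Each rat had 1 array, and corn oil replicate 2 lay on a slide of its own, scanned later. Differences between rats, slides and scans therefore cannot be told apart in this spread. The within-group SD was 0.529 for Asl, 0.388 for Ass1, 0.372 for Arg1 and 0.310 for Cps1, against 0.165 for Otc, 0.163 for Nags and 0.098 for Slc25a15. The median over all genes was 0.184, and over the 2764 genes of highest mean signal it was 0.113. Among all genes the SD of Asl stood at the 92.5th percentile, Ass1 at the 84.8th, Arg1 at the 83.5th and Cps1 at the 76.9th. Slc25a15 stood at the 18.5th percentile, with Otc and Nags at the 43.7th and 43.1st. Set against the 2764 genes of highest mean signal, Slc25a15 stood at the 41.8th percentile, Nags at the 67.7th and Otc at the 68.1st. On that scale Cps1 stood at the 89.4th, Arg1 at the 92.2nd, Ass1 at the 92.4th and Asl at the 96.2nd. The low spread of Slc25a15 was that of its brighter probe only. Its dimmer probe, at processed signals of only 26.0 to 70.8, had an SD of 0.23 in corn oil and 0.75 in TCEP. The highest and lowest of the 6 livers were 2.26-fold apart for Asl, 2.12-fold for Ass1, 2.07-fold for Arg1 and 2.05-fold for Cps1, and 1.19-fold to 1.33-fold apart for the other 3 genes by their brightest probes. These are descriptions of 3 rats a group, with no test of one gene's spread against another's.

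**Figure D3:**
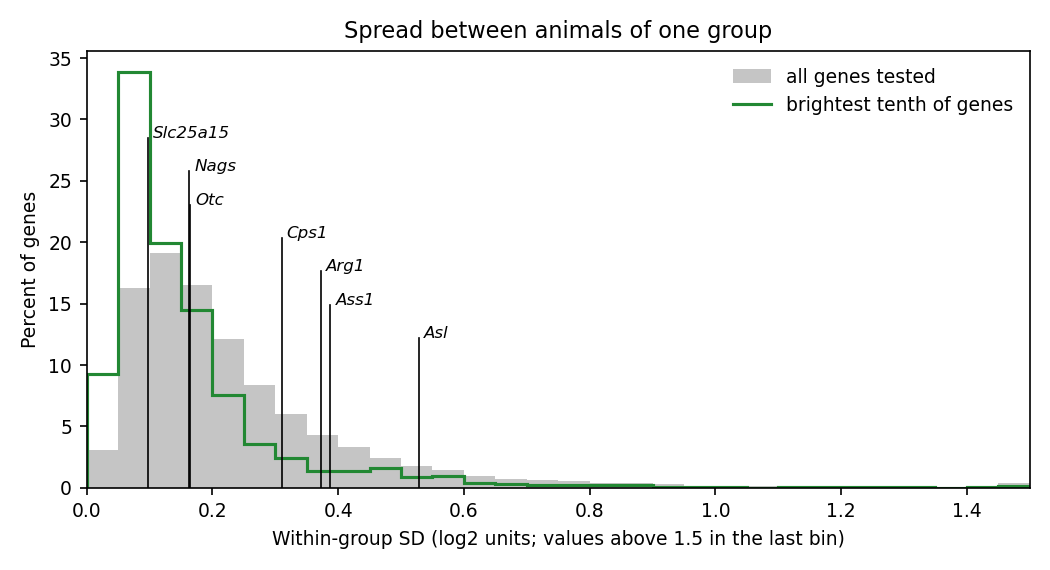
Percent of genes (y axis) by within-group SD in log2 units (x axis) for all genes tested, in grey, and for the 2764 genes of highest signal, as a green outline; black lines mark the 7 urea cycle genes at their SD, and the height of a line carries no value. Asl, Ass1, Arg1 and Cps1 lie right of both medians, which are 0.184 and 0.113.

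The differences of Cps1, Ass1 and Arg1 came nearest to 0 when the same rat, TCEP replicate 3, was left out. It was the lowest of the 6 livers for these 3 of the 7 genes, and only Slc25a15, by its brighter probe, lay above its own mean there. The dimmer Slc25a15 probe was lowest in that liver, at -4.33, where its processed signal was only 26.0. Averaged over the 7 genes, TCEP replicate 3 lay at -0.36 log2 units from the genes' own means, and the other 5 livers lay between -0.02 and 0.12. Without that array the differences were -0.19 for Cps1, -0.03 for Ass1, -0.18 for Arg1 and 0.14 for Asl, and without corn oil replicate 3 that of Cps1 was -0.22. The array was lowest for 16.1% of all genes and for 11.7% of the 2764 of highest signal, where it was highest for 39.9%, and its share of probes well above background, 61.6%, was within the range of the others. What set these genes low in that liver was not tested.

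**Figure D4:**
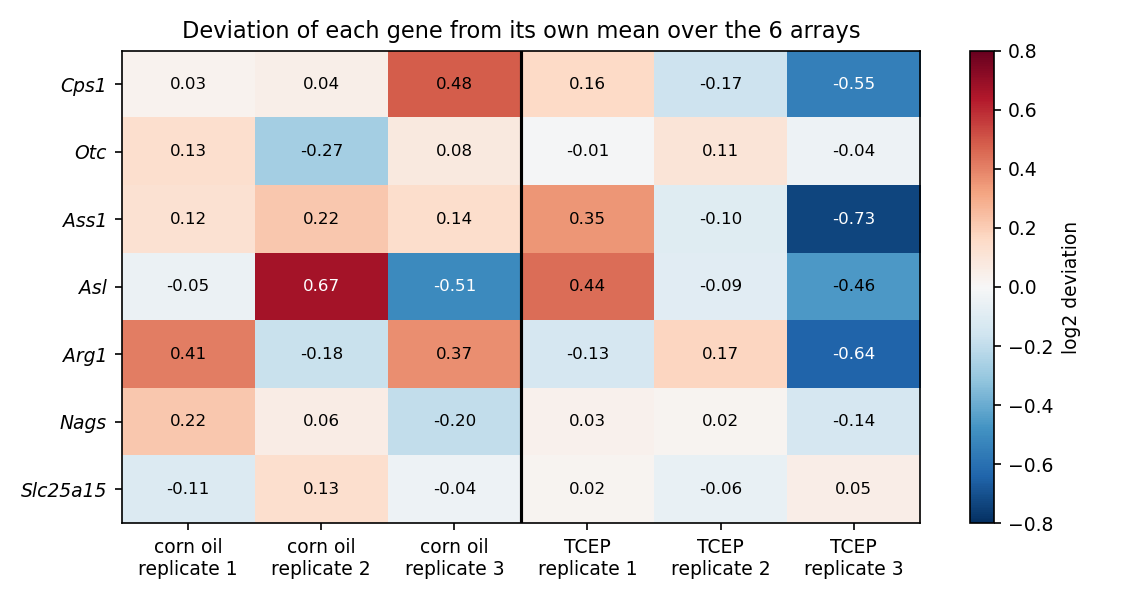
Log2 deviation of each urea cycle gene (rows) from its own mean over the 6 arrays (columns; colour and printed value), with a black line between corn oil and TCEP. TCEP replicate 3 is the column with the lowest mean deviation, -0.36, and corn oil replicates 2 and 3 lie on opposite sides for Asl.

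Other livers stood apart for single genes. Corn oil replicate 2, on its own slide, was the lowest liver for Otc and the lowest corn oil liver for Arg1. It was the highest liver for Asl and, by the brighter probe only, for Slc25a15. It was also the lowest array for 35.5% of the 2764 genes of highest signal and for 21.1% of all genes. Without it the difference of Asl was 0.24, that of Otc -0.09 and that of Arg1 -0.59, with a limma adjusted p of 0.596 for Arg1. TCEP replicate 1 was the highest liver for Ass1 and the second highest for Cps1 and Asl. Without it Cps1 stood at -0.54 and Ass1 at -0.57, with limma unadjusted p of 0.046 and 0.039 and an adjusted p of 0.711 for both. The count of urea cycle genes at an unadjusted p under 0.05 was then 2 of 7 in place of 0, beside 1850 of all 27642 genes.

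Of the 16 genes of ammonia, glutamine and glutamate handling, 8 had a higher and 8 a lower mean with TCEP and 0 passed the adjusted threshold, with a median of -0.02. Glul, glutamine synthetase of the hepatocytes around the central vein, read 3.24, 3.11 and 3.47 with corn oil and 2.18, 2.57 and 2.41 with TCEP. All 3 TCEP livers lay below all corn oil livers, and the difference was -0.89 ± 0.15 (SE; limma unadjusted p 0.00081, adjusted p 0.302), so it did not pass either. Rhbg, an ammonium transporter of the same cells, differed by 0.93 ± 0.24 (SE; limma adjusted p 0.472) with all TCEP livers above all corn oil livers. Slc38a4, an amino acid transporter, differed by -0.40 ± 0.13 (SE), and its groups did not overlap. Glud1, which releases ammonia from glutamate, differed by 0.02 ± 0.28 (SE), and Gls2, the liver glutaminase found around the portal vein, by -0.08 ± 0.24 (SE). At an unadjusted p under 0.05 the list held 4 genes, Glul, Rhbg and Slc38a4 among them, against 0 of the 7 urea cycle genes and 9.2% of all genes. A difference between the lists was not tested.

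Of 24 genes of arginine, ornithine and polyamine metabolism, which share substrates with Arg1 and Otc, 21 were tested, with a median of 0.01. Their means were higher for 11 and lower for 10, and 0 passed the adjusted threshold. Pycr1, which makes proline, had the only unadjusted p under 0.05, with 0.97 ± 0.28 (SE; limma adjusted p 0.484). The brightest members were Oaz1, the antizyme of ornithine decarboxylase, at -0.07 ± 0.08 (SE), Aldh4a1, of proline breakdown, at 0.16 ± 0.11 (SE), and Gamt, of creatine synthesis, at 0.21 ± 0.15 (SE). Of 11 genes that supply aspartate or take up fumarate, 9 were tested, with a mean above corn oil for 7, below it for 2, and a median of 0.04. Slc25a11, the oxoglutarate carrier, differed by 0.38 ± 0.10 (SE; limma adjusted p 0.479). Pc, pyruvate carboxylase, differed by 0.09 ± 0.11 (SE), Fh, fumarase, by 0.19 ± 0.18 (SE), and Slc25a22, a glutamate carrier, by -0.29 ± 0.15 (SE). The groups did not overlap for Pycr1, Oaz1, Slc25a11 and Slc25a22, as for 17.4% of all genes.

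Of 18 regulators of liver and urea cycle genes, 17 were tested, with a mean above corn oil for 8, below it for 9, and a median of -0.01. Nr1h4, the bile acid receptor, differed by 0.42 ± 0.16 (SE; limma adjusted p 0.531), and its groups did not overlap. Gcgr, the glucagon receptor, differed by -0.15 ± 0.15 (SE) and Cebpb, a transcription factor of the acute and fasting responses, by -0.10 ± 0.25 (SE). Of 38 genes of amino acid breakdown, the source of much of the ammonia that the urea cycle clears, 36 were tested, and 23 had a higher and 13 a lower mean, with a median of 0.03. An unadjusted p under 0.05 was met by 4 of the 36, near the 9.2% of all genes, each with a higher mean with TCEP. They included Bckdha and Bckdhb, subunits of the branched-chain ketoacid dehydrogenase, at 0.47 ± 0.11 and 0.68 ± 0.17 (SE; limma adjusted p 0.438 and 0.464). Mccc1, of leucine breakdown, differed by 0.28 ± 0.10 (SE). The groups did not overlap for Bckdha, Bckdhb and Mccc1. The brightest members Bhmt, Mat1a and Ahcy, of the methionine cycle, differed by 0.03 ± 0.17, 0.07 ± 0.11 and -0.17 ± 0.15 (SE). In both lists 0 genes passed the adjusted threshold.

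Since urea cycle genes are mostly periportal, other genes of that zone were set beside them. Of the 12, 3 had a higher and 9 a lower mean with TCEP, with a median of -0.10 and 0 past the adjusted threshold. TCEP replicate 3 was the lowest liver for 6 of the 12 and for 3 of the 7 urea cycle genes, beside 16.1% of all genes. It was also lowest for 5 of the 16 ammonia and glutamate genes, 8 of 36 of amino acid breakdown and 4 of 17 regulators. The counts were 3 of 20 for arginine, ornithine and polyamine genes with a value on every array, and 2 of 9 for aspartate and fumarate genes. They were 2 of 8 for hepatocyte markers and 1 of 13 for pericentral genes. Some genes are in more than 1 list and so are counted more than once. Differences between these shares were not tested. Pck1, the gluconeogenic PEP carboxykinase, read 7.07, 6.91 and 7.27 with corn oil and 6.80, 6.95 and 5.71 with TCEP. TCEP replicate 3, also the lowest liver for Cps1, Ass1 and Arg1, was far below the rest for Pck1. Its difference was -0.60 ± 0.34 (SE; limma adjusted p 0.618). The other 5 periportal genes lowest in TCEP replicate 3 were Sds, Hal, Gls2, Pigr and Tat, named after their values were seen. Sds, Hal and Tat are also in the amino acid breakdown list, and Gls2 is in the ammonia and glutamate list. Fbp1, a gluconeogenic enzyme, differed by 0.04 ± 0.11 (SE). Hsd17b6, a steroid dehydrogenase, had the only unadjusted p under 0.05, with -1.39 ± 0.22 (SE; limma adjusted p 0.295), and its groups did not overlap. Of the 13 pericentral genes 5 had a higher and 8 a lower mean, with a median of -0.26 and 0 past the adjusted threshold. Besides Glul and Rhbg, Cyp7a1, the first enzyme of bile acid synthesis, differed by -1.74 ± 0.49 (SE; limma adjusted p 0.481). The groups did not overlap for Cyp7a1. The brightest, Cyp2e1, Rgn and Cyp1a2, differed by 0.09 ± 0.19, 0.19 ± 0.18 and -0.26 ± 0.19 (SE).

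**Figure D5:**
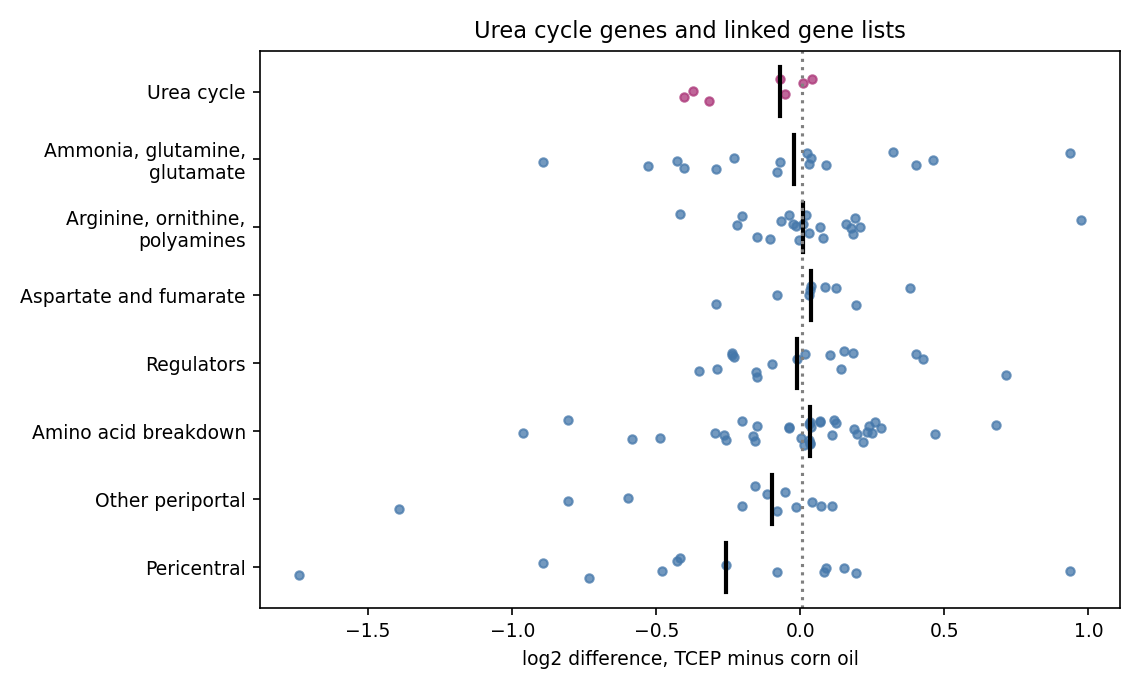
Log2 difference, TCEP minus corn oil (x axis), of each tested gene in the urea cycle list and the 7 linked lists (rows; some genes are in more than 1 list); points are genes, with vertical jitter only, black bars are list medians and the dotted line is the median of all genes, 0.005. The urea cycle genes lie between -0.40 and 0.04, and no gene shown passed an adjusted p of 0.05.

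Hepatocyte identity and other cell types were checked with marker lists. All 8 hepatocyte markers were well above background on all 6 arrays. Their median difference was -0.06, with a higher mean with TCEP for 2 and a lower mean for 6. Alb, serum albumin, had the largest difference of the 8, -0.19 ± 0.09 (SE; limma adjusted p 0.593). The summed linear level of the 8 markers, in multiples of the array's 75th percentile, was 6874 to 7310 with corn oil and 6248 to 7011 with TCEP. The same sum over the 7 urea cycle genes was 511 to 561 with corn oil and 326 to 513 with TCEP. Arg1, Ass1 and Asl, the members of highest signal, weigh most in that sum, so it is not an even measure of the 7 genes. Summed markers ran from 113 to 246 (corn oil) and 152 to 182 (TCEP) for 11 of 12 macrophage genes, and from 0.985 to 5.81 and 1.61 to 3.17 for 3 of 6 neutrophil genes. They ran from 3.86 to 5.13 and 3.81 to 5.40 for 8 of 12 lymphocyte genes, and from 49.4 to 62.8 and 54.8 to 61.2 for 6 of 10 endothelial genes. Stellate cell markers, 10 of 11 tested, summed to 40.3 to 43.9 with corn oil and 38.3 to 40.0 with TCEP, and cholangiocyte markers, 5 of 6, to 1.22 to 1.55 and 1.62 to 2.46. Only these last 2 sums did not overlap between the groups, with 0 markers of any list past the adjusted threshold. Of all single genes, 17.4% did not overlap either, and the nearest stellate sums were 40.3 with corn oil and 40.0 with TCEP. The part of any of these cell types in the urea cycle values was not tested.

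The genes whose pattern over the 6 arrays was most like the mean of the urea cycle genes, each centred on its own mean, were Hrc (Pearson r = 0.985), Bcorl1 (0.979) and Kif3b (0.977). They were taken from 10432 genes with a symbol that were well above background on all arrays, and with 6 points that share arrays and slides such values are a description only.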

How the data were processed

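Liver RNA of 6 rats was labelled with Cy3 and hybridised to 1-colour Agilent arrays, as the labels' protocols say, each with 62976 spots. Feature Extraction from Agilent was used by the authors, version 10.7.1.1 per the file headers and 10.7 per the submitters' processing notes. The deposited scanner files hold a background-subtracted processed intensity, median intensities and flags (0 or 1). Their deposited table of values is a ratio of each signal to its array's 75th percentile, as read from its values; what else the authors did was not given in the sources used here.

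Levels were log2 of the processed signal minus the array's 75th percentile over 61657 non-control probes, leaving out 1319 control spots and setting 64 outlier-flagged spots over 6 arrays missing. A probe stayed if every array of 1 or both groups had it well above background (37043 probes). Names came from a RefSeq table of build GRCr8 by unversioned accession (27460 probes matched), with the brightest probe per name (27642, of which 10982 carry a symbol). Coordinates are given only for promoter windows, whose table held 7 of the 8 members and not Arg1; the array design names an older build. Each gene's level rests on 1 probe, and the number of arrays limits precision. The 2 treatments were compared in R 4.3.3 with limma 3.58.1 (lmFit, eBayes), using two-sided p-values adjusted by Benjamini-Hochberg over all names at a threshold of 0.05; the fit was also tested on simulated data. Groups came from the treatment label; replicates are separate animals per the labels.

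The members and lists were chosen with earlier results of these data known. All members were named with every probe, and from each linked list the 3 brightest genes and up to 3 with the smallest unadjusted p under 0.05; cell type lists stand as counts, apart from hepatocyte markers. The 3 genes most like the members were also named. Some genes that the rule takes are not reported here. There were 18 alternatives: quantile normalization, median centring, normexp (offset 50, on median in place of mean signals, which were not used here), the deposited table, 2 filters, the mean over probes, each probe alone, trended robust eBayes, slide or replicate number as a block, flagged spots kept, and each array left out.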

Additional observations from a re-analysis of the deposited data

How the results depend on the processing

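With limma, 0 genes over the whole array and 0 urea cycle genes passed an adjusted p of 0.05 under the main setting and all 18 alternatives. An unadjusted p under 0.05 was met by 2543 genes under the main setting, and this count differed between settings. The smallest adjusted p over all genes was 0.0577 with corn oil replicate 3 left out and 0.712 with TCEP replicate 3 left out, the ends of the range. The differences of Cps1 (-0.54 to -0.19), Ass1 (-0.57 to -0.03) and Arg1 (-0.59 to -0.18) kept their sign in all 18. Those of the other 4 genes changed sign: with quantile normalization Otc was -0.043 and Slc25a15 -0.032, with median centring Nags was 0.0064, and with the mean over probes Slc25a15 was -0.14. With 1 array left out, Otc ran from -0.087 to 0.12, Asl from -0.34 to 0.24, Nags from -0.16 to 0.042 and Slc25a15 from -0.042 to 0.081. The members' median ran from -0.31, without TCEP replicate 1, to -0.012, without TCEP replicate 3. Members whose groups did not overlap numbered 0 to 2 with 1 array left out: 1 without corn oil replicate 2 (Arg1, lower; 28.0% of all genes), 1 without corn oil replicate 3 (Nags, lower; 32.3%) and 2 without TCEP replicate 1 (Ass1 and Cps1, lower; 26.6%). The causes were not tested. Means were lower in 7 of the 7 members with quantile normalization, 6 with the mean over probes and 4 with median centring, which moved the median of all genes to 0.06. No label says that replicate numbers pair the rats. The correlations of same-numbered deviations were -0.048, -0.165 and -0.015, which with 3 rats a group cannot decide whether they were paired. With the replicate number as a block in limma, 1901 genes had an unadjusted p under 0.05 and 0 passed the adjusted threshold. The member differences were those of the main setting. With 3 rats a group, the median SE of a member was 0.218, against 0.145 over all genes, so differences of the size seen for Cps1, Ass1 and Arg1 were not separable from 0 here.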
